A study of Mus musculus with 3 samples.

Results

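The genes described here are 40 mouse genes for enzymes and partner proteins that place, remove or read chemical marks on DNA and histones. They are the DNA methyltransferases and methyl-DNA readers, the Polycomb proteins, other histone methyltransferases, acetyltransferases, histone deacetylases and sirtuins. They were chosen by name, as every array probe whose gene name was a listed gene or a current or older symbol of it. This gave 40 of the 27724 genes named on the array and 75 of its 41167 probes, with 17 genes on 1 probe and 23 on more than 1. The series measured gene expression in C3H10T1/2, an established mouse embryo line of fibroblast-like cells used in assays of cell transformation, after exposure to hexavalent chromium, Cr(VI).

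There were 3 groups of the same cell line, with no other genotype or agent. The first was left untreated, the second received Cr(VI) at 0.01 uM and the other received Cr(VI) at 1 uM. For each group 3 flasks were seeded with 2000 cells, and exposure began 24 h later and lasted 48 h. The cells were then kept in fresh medium and RNA was prepared from cells collected after 15 days, so the arrays describe cells that had been out of chromium for most of that time. Each group had 1 array, and no label states how RNA from separate flasks was combined. With no replicates no test between groups was possible, and every difference below lies between 2 single arrays.

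DNA methylation is copied onto the new strand after replication by Dnmt1, which the reader Uhrf1 brings to hemimethylated sites, while Dnmt3a and Dnmt3b set new methylation. Polycomb repressive complex 2, built on Ezh1 or Ezh2 with Suz12 and Eed, methylates histone H3 at lysine 27, and complex 1, with Bmi1, Ring1 and Rnf2, ubiquitinates histone H2A. Acetyltransferases open chromatin by acetylating histone tails, and deacetylases and sirtuins, the latter dependent on NAD, remove acetyl groups from histones and from other proteins.

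A value is log2 processed signal minus the 75th percentile of its array, so 0 is the 75th percentile and 1 unit is a 2-fold difference. Values of one probe can be compared across arrays, but not those of different probes with each other. Of all probes 41.8% (untreated), 36.4% (0.01 uM) and 41.5% (1 uM) were well above background, so the 0.01 uM array showed fewer dim genes. All 14 fibroblast markers were detected on the untreated and 0.01 uM arrays and 13 on the 1 uM array, where Thy1 was not well above background. At 1 uM 5 of the 14 were at least 1.5-fold lower and 1, Lum, was higher, or 42.9% beside 27.2% of all genes, with Thy1 at least 50.2-fold and Fn1 at least 2.20-fold lower. With the spike-in scaling 1 was lower and 3 higher, where 56.7% of all genes were called. The part of these shifts in the differences below was not tested. Of 12 macrophage and blood markers 3, 3 and 4 were detected, of 8 epithelial markers 0, 0 and 1 (Krt19), and of 6 endothelial markers 0, 0 and 1 (Cdh5). In RNA from a whole culture, fewer cells of a type and less RNA per cell cannot be told apart. Scaling on 5 spike-in controls in place of the 75th percentile raised every 1 uM difference by 0.68 and every 0.01 uM difference by 0.30. It put the median of all genes at 0.64 and 0.36, where the main scale had -0.03 and 0.06. Directions below are therefore relative to the 75th percentile.

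The probes whose values carry the main differences are printed as 30 of their 60 bases, in lower case, with coordinates of the whole probe in build mm9 as the array files give them. No annotation of that build was used, so exon and UTR positions are not given. Ezh1 and Ezh2 are shown as the pair of paralogs that parted, Dnmt1 and Uhrf1 as the pair that moved together, and Hdac9 as a dim gene that came up.
Ezh1: gaggagctgacttgacacaaaaacaaaaac
Ezh2: atgataaatacatgtgcagctttctgttca
Dnmt1: tgtccagtgctcgggagagcgcatcagctg
Uhrf1, brightest probe: gcgagataaatgggtttcctcgatgaattt
Uhrf1, further probe: catggaaggcagagatgtgttatcagttcc
Hdac9: cctggaaccagtaaaaagaaaagctggaca
The Ezh1 probe lies at chr11:101053137-101053196 on the minus strand, and that of Hdac9 at chr12:35056507-35056566 on the minus strand. The 2 Uhrf1 probes lie on the plus strand at chr17:56462657-56462716 and chr17:56462554-56462613 and share no base. The probes for Ezh2, at chr6:47482047-47482942, and Dnmt1, at chr9:20711973-20712341, both on the minus strand, cover more genome than their 60 bases.

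For Sirt2 and Sirt7 some probes overlap, which bears on how far they are separate measurements. The capitals mark the 23 bases shared by the brightest Sirt2 probe, at chr7:29573375-29573434, and the next, at chr7:29573412-29573472, both on the plus strand.
Sirt2, brightest probe: agtgccaGAATAAGGCATTTCTCTATTGTT
Sirt2, next probe: GAATAAGGCATTTCTCTATTGTTttgaggg
The other Sirt2 probe, at chr7:29571001-29572626, shares no bases with them. The 2 probes of Sirt7 share 40 bases.

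Of the 40 genes, 36 had a brightest probe well above background on at least 1 array and 33 on all 3. The other 4 were not well above background on any array, through any of their probes: Ep300 with 4 probes, Hdac2 with 2, and Hdac11 and Sirt6 with 1 each. These 4 have no fold in any comparison. No probe of the 40 genes was saturated.

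**Figure D1:**
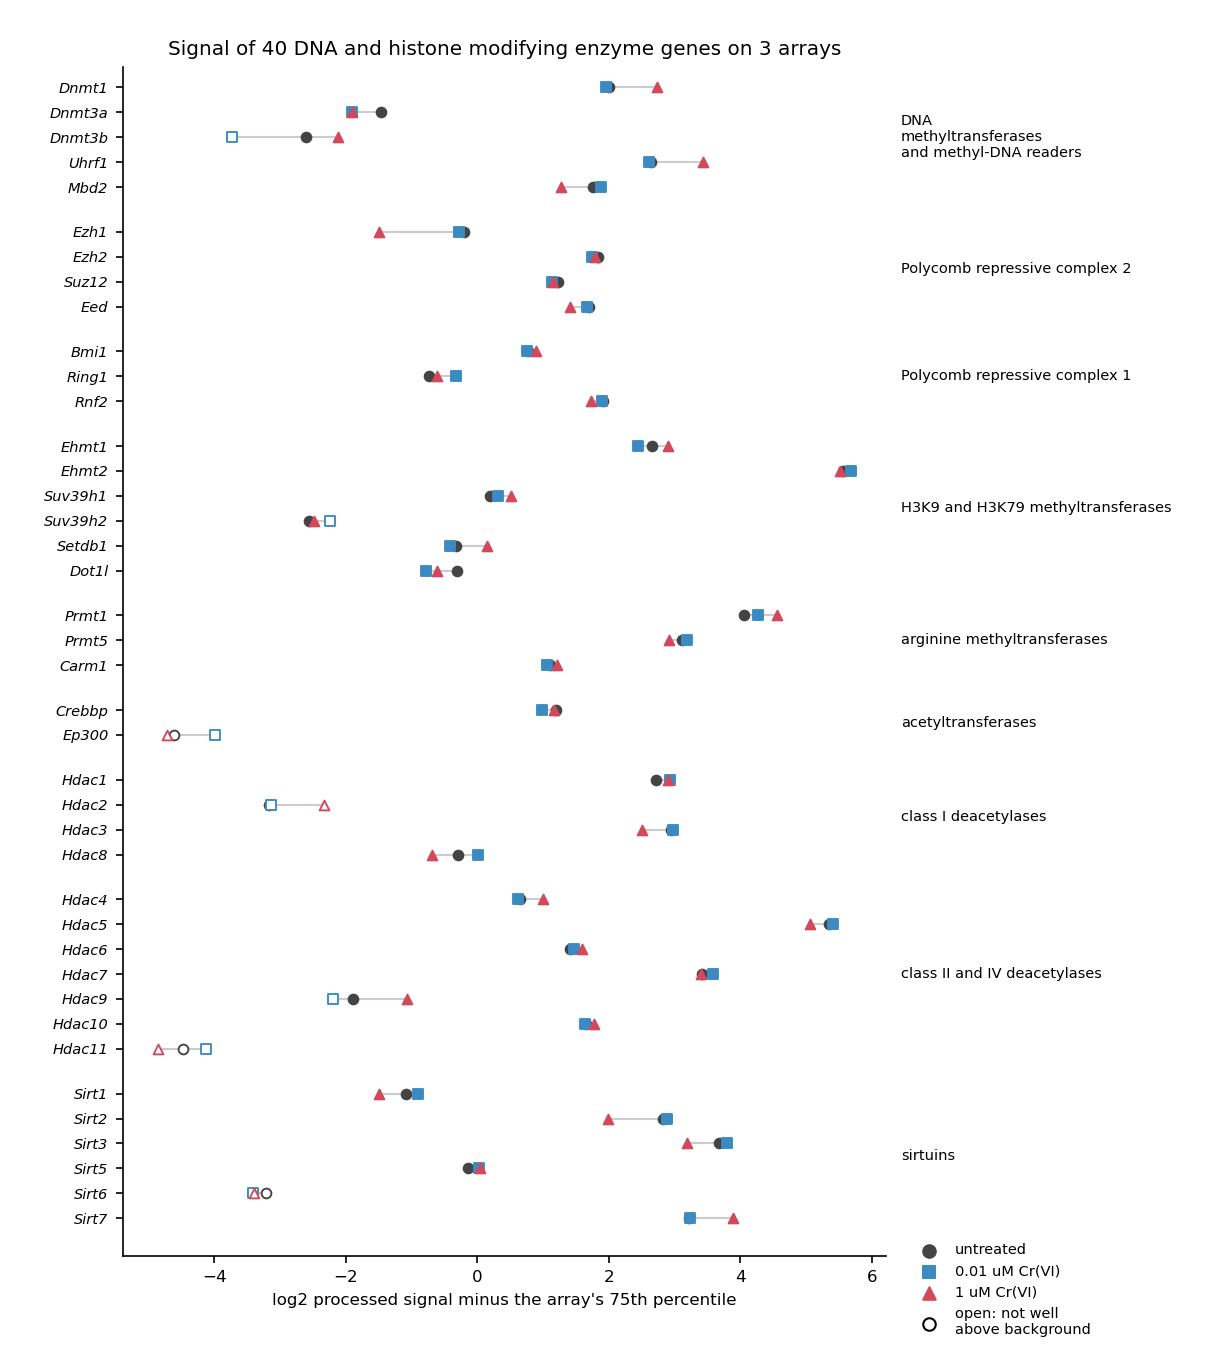
Log2 processed signal minus the array's 75th percentile (horizontal axis) for the brightest probe of each of the 40 genes (vertical axis, grouped by role) on the untreated (circle), 0.01 uM (square) and 1 uM (triangle) arrays, 1 array a group. Open symbols are not well above background; the squares lie near the circles for most genes, while the triangles of Dnmt1, Uhrf1 and Sirt7 lie to the right and those of Ezh1 and Sirt2 to the left.

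Between 1 uM and untreated, 4 of 36 genes were at least 1.5-fold higher (Dnmt1, Uhrf1, Hdac9 and Sirt7) and 2 were at least 1.5-fold lower (Ezh1 and Sirt2). That is 16.7% of the 36, where 27.2% of all 12450 genes compared were called by the same rule, 13.8% higher and 13.4% lower. At 2-fold only Ezh1 was called, or 2.78% of the 36 against 10.4% of all genes, 5.57% higher and 4.86% lower. The median difference was 0.03 for the 36 and -0.03 for all genes, the median size of a difference was 0.29 against 0.32, and 18 of the 36 lay on each side of 0. The scanner's error model gave a median technical standard error of 0.21 for a difference, and 15 of the 36 differences were within 1 standard error of 0. That error covers the array only and leaves out differences between cultures. With the spike-in scaling 23 genes were higher and 1, Ezh1, was lower, where 56.7% of all genes were called. Of all genes called, 50.7% were higher on the main scale and 94.9% with the spike-in scaling.

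Between 0.01 uM and untreated, 0 of 36 genes were called at 1.5-fold, where 2.03% of 11915 genes were, 0.898% higher and 1.13% lower. Dnmt3b, Suv39h2 and Hdac9 were not well above background at 0.01 uM, where the dimmest detected signal was -2.11. Their untreated values of -2.61, -2.56 and -1.90 lay below it or within 1.5-fold of it, so they could not be called lower there. Dnmt3b and Suv39h2 gave no fold, here or between 1 uM and 0.01 uM, and Hdac9 gave a bound of -0.22. At 2-fold the share of all genes was 0.428%, 0.26% higher and 0.168% lower. The median difference was 0.01 over the 33 genes measured on both arrays, with 0.06 for all genes, and the median size was 0.09 against 0.11. The values ran from -0.46 for Dot1l to 0.40 for Ring1, and 26 of 33 lay within 1 standard error of 0. With the spike-in scaling Ring1 and Hdac8 passed 1.5-fold, both higher, where 5.82% of all genes were called. Of all genes called, 44.2% were higher on the main scale, 94.8% with the spike-in scaling and 29.5% when scaled on detected probes at their 75th percentile.

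Between 1 uM and 0.01 uM, 4 of 36 genes were higher and 6 lower at 1.5-fold, or 27.8%, where 29.7% of 12059 genes were called, 12.4% higher and 17.3% lower. At 2-fold Hdac9 was higher and Ezh1 lower, where 11.7% of all genes were called, 5.2% higher and 6.45% lower. The Hdac9 value is a bound, as its probe was not well above background at 0.01 uM. The higher genes were again Dnmt1, Uhrf1, Hdac9 and Sirt7, and the lower genes were Ezh1, Sirt2, Mbd2, Hdac8, Sirt1 and Sirt3. The comparison shares the 1 uM array with the first and is therefore not separate support for it. Mbd2, Hdac8, Sirt1 and Sirt3 read between -0.70 and -0.59 here and were not called with the 75th percentile of detected probes, which gave 5 higher and 2 lower. Of all genes called, 41.7% were higher on the main scale, 56.3% with the 75th percentile of detected probes, 57.8% with loess scaling and 80.2% with the spike-in scaling.

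**Figure D2:**
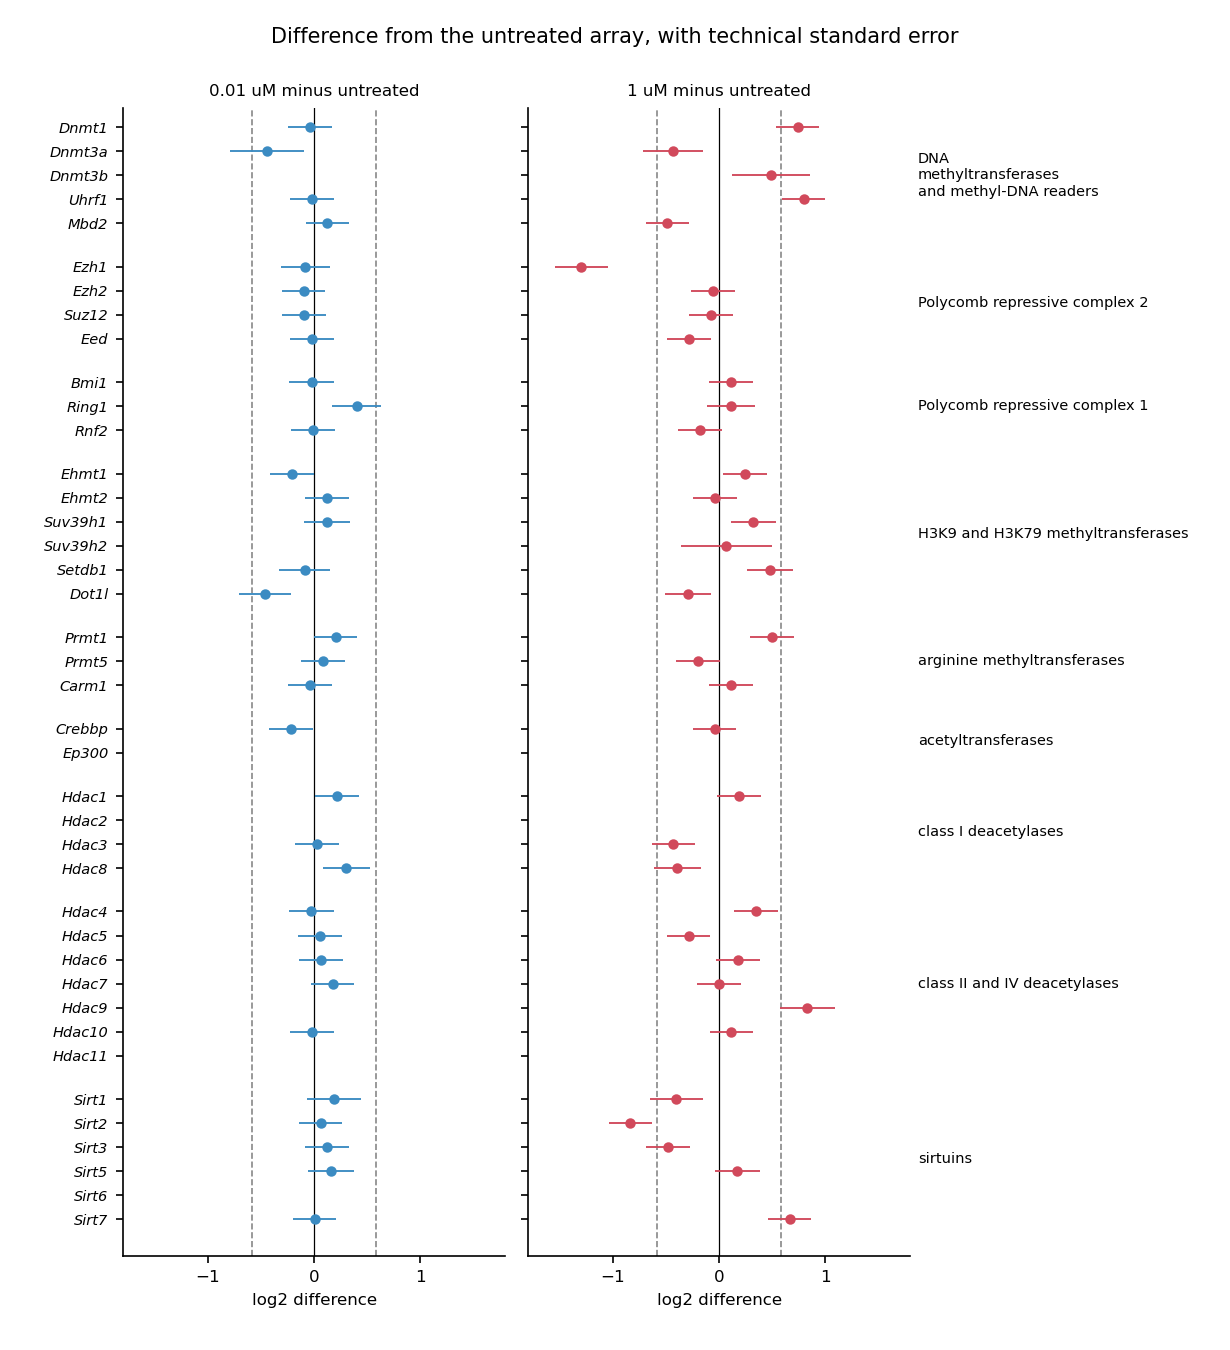
Log2 difference from the untreated array (horizontal axes) for 0.01 uM (left) and 1 uM (right) of each gene (vertical axis) measured on both arrays, with bars for 1 technical standard error and dashed lines at 1.5-fold. On the left no gene passes a dashed line, and on the right Dnmt1, Uhrf1, Hdac9 and Sirt7 pass the upper and Ezh1 and Sirt2 the lower; both panels share the untreated array.

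Among the DNA methylation genes the maintenance pair was higher on the 1 uM array. Dnmt1, the maintenance methyltransferase, read 2.00 untreated, 1.96 at 0.01 uM and 2.74 at 1 uM. Its difference at 1 uM was 0.74 ± 0.20 (technical SE, 1 array a group), or 1.67-fold, and at 0.01 uM it was -0.04. Of 12207 genes with a measured or bounded difference at 1 uM, 9.99% were at or above that of Dnmt1. Uhrf1, which guides Dnmt1 to new DNA, read 2.64, 2.62 and 3.43 in the same order of arrays. Its difference at 1 uM was 0.80 ± 0.20, or 1.74-fold, and its further probe, at 1.41, 1.36 and 2.30, gave 0.89. In both genes the 1 uM array alone stood high, and the untreated and 0.01 uM values were within 1 standard error of each other. The 2 genes differed from each other in their 1 uM change by 0.06 ± 0.29. A constant per array cancels in such a gene-to-gene difference, but a scaling that depends on signal does not, and with quantile normalization it was 0.11.

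Neither de novo enzyme reached 1.5-fold at 1 uM. Dnmt3a was dim, at -1.47, -1.91 and -1.90, and its brightest probe was lower by -0.43 ± 0.28 at 1 uM. Another of its probes, detected on all 3 arrays, read 0.49 higher, so the direction of Dnmt3a is not settled by these arrays. The 1 uM change of Dnmt1 exceeded that of the brightest Dnmt3a probe by 1.17 ± 0.35. Dnmt3b read -2.61 untreated and -2.12 at 1 uM and was not well above background at 0.01 uM. Its 1 uM difference of 0.49 ± 0.37 did not reach 1.5-fold. Mbd2, a reader that recruits deacetylase complexes to methylated DNA, read 1.76, 1.88 and 1.27, a 1 uM difference of -0.49 ± 0.21 that turned to 0.19 with the spike-in scaling.

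Dnmt1 and Uhrf1 are known to be expressed most in dividing cells, so proliferation markers are given beside them. At 1 uM 2 of 20 were at least 1.5-fold higher and 1 lower, or 15%, where 27.2% of all genes were called. With quantile or loess scaling 6 were higher, and with the spike-in scaling 14, where that scaling called 56.7% of all genes. All 20 proliferation markers were detected on each array, and their summed signal, in multiples of the 75th percentile, was 304 untreated, 324 at 0.01 uM and 357 at 1 uM. Bright probes weigh most in that sum, such as those of Mcm6 and Pcna, so it does not describe each marker. The median difference of the 20 at 1 uM was 0.21, with 12 above 0 and 8 below, or 0.89 with the spike-in scaling. The replication genes Rrm2 and Tyms passed 1.5-fold higher, at 0.62 and 0.59, and the mitotic kinase gene Aurkb was lower, at -0.70. Also below 0, but under 1.5-fold, were Ccnb2 at -0.44, Bub1 at -0.24, Birc5 at -0.15 and Ccna2 at -0.12. Mki67 at -0.09, Ccnb1 at -0.06 and Cdk1 at -0.02 make up the rest of the 8 below 0. The helicase genes Mcm2 to Mcm7 lay between 0.25 and 0.57, under 1.5-fold. The part of these genes in the values of Dnmt1 and Uhrf1 was not tested.

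Since Dnmt1 and Uhrf1 were higher together, the RefSeq promoter windows (build GRCm38.p6, 250 bases before to 50 after each start) of the 40 genes were searched for the site of the cell cycle factors of the E2F family. It was spelled as TTTCCCGC, TTTGGCGC, TTTCGCGC or TTTGCCGC, on both strands. Windows were found for 35 of the 40 genes, and 5 of these genes (14.3%) held such a word in any window, where 704 of 27025 genes (2.6%) did. The 5 take in Dnmt1 and Uhrf1, the genes that prompted the search. A word lay in 1 of 3 windows of Dnmt1 and in 1 of 2 of Uhrf1. All 4 words hold CG, and the windows of the 40 genes had a median of 23 CG pairs against 7 in all windows; the part of that in the share was not tested. In the matches below the capitals mark the word, which on the first line is read on the other strand.
Dnmt1, chr9:20952824-20952853, minus strand: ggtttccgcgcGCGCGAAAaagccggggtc
Dnmt1, chr9:20952574-20952603, minus strand: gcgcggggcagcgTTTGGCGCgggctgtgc
Uhrf1, chr17:56304117-56304146, plus strand: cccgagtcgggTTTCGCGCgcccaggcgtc
The other 3 genes with a word were Ezh2, Suz12 and Suv39h1, whose differences at 1 uM were -0.06, -0.08 and 0.32, all under 1.5-fold. A match is a description of letters and not of binding. No motif was found in the windows of Hdac9, Sirt7, Ezh1 or Sirt2.

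In Polycomb repressive complex 2 one of the alternative catalytic subunits was lower and the other was not. Ezh1, the catalytic subunit known for its presence in resting cells, read -0.20 untreated, -0.28 at 0.01 uM and -1.50 at 1 uM. The 1 uM array stood low, by -1.30 ± 0.25 or 2.46-fold, and the 0.01 uM value was within 1 standard error of untreated at -0.08 ± 0.23. Only 2.75% of the 12207 genes were at or below Ezh1. Ezh2, the paralog of dividing cells, read 1.84, 1.74 and 1.79, a 1 uM difference of -0.06 ± 0.20. Ezh1 thus changed by -1.24 ± 0.32 relative to Ezh2 at 1 uM and by 0.01 ± 0.31 at 0.01 uM. At 1 uM the relative change was -1.35 with quantile normalization and -0.95 with normexp. Each gene had 1 probe, so neither was checked by another.

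The scaffold and reader subunits of that complex were nearer to Ezh2. Suz12, which holds the complex together, read 1.23, 1.14 and 1.15, with a 1 uM difference of -0.08 ± 0.21. Eed, which binds the finished mark, read 1.70, 1.68 and 1.41, a difference of -0.28 ± 0.20. All 4 genes of the complex lay below 0 at 1 uM and their median was -0.18, but with the spike-in scaling the median was 0.50 and only Ezh1 was below 0.

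The subunits of Polycomb repressive complex 1 stayed under 1.5-fold at both doses. Bmi1, a subunit that stimulates the ligase, read 0.77, 0.75 and 0.89. Rnf2, its main catalytic subunit, read 1.91, 1.90 and 1.73, and its further probe was lower by a like amount at 1 uM, -0.30 against -0.18. Ring1, the other catalytic subunit, had 2 probes that disagreed: at 1 uM they gave 0.11 and -0.45 and at 0.01 uM 0.40 and -0.14. The value of 0.40 for Ring1, the highest of the 33 at 0.01 uM, thus rested on 1 of its 2 probes.

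The methyltransferases for lysine 9 and lysine 79 of histone H3 gave no call against untreated. Setdb1, which silences retroelements, read -0.32, -0.41 and 0.16, a 1 uM difference of 0.48 ± 0.22. Suv39h1, an enzyme of constitutive heterochromatin, read 0.19, 0.32 and 0.52, a difference of 0.32 ± 0.21. Both were highest on the 1 uM array without reaching 1.5-fold. Ehmt1 read 2.66, 2.45 and 2.90 and its partner Ehmt2, with which it forms the main enzyme for dimethylation, read 5.56, 5.68 and 5.52. Suv39h2 was near the detection limit, at -2.56 and -2.49 untreated and at 1 uM, and not well above background at 0.01 uM. Dot1l, the enzyme for lysine 79, was the lowest of the 33 at 0.01 uM, at -0.46 ± 0.24, and read -0.31, -0.78 and -0.61. The median of the 6 genes at 1 uM was 0.16, with 4 above 0.

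Among the arginine methyltransferases Prmt1 was highest on the 1 uM array. Prmt1, the main enzyme for asymmetric dimethylation, read 4.06, 4.27 and 4.56, a 1 uM difference of 0.50 ± 0.20. It passed 1.5-fold with 3 of 11 other settings, namely quantile, loess and spike-in scaling. Prmt5, which makes symmetric dimethylation, read 3.11, 3.19 and 2.91, a difference of -0.20 ± 0.20 that turned to 0.48 with the spike-in scaling. The 1 uM change of Prmt1 exceeded that of Prmt5 by 0.70 ± 0.29, and these were the highest and lowest of the 3 arginine methyltransferases. Carm1, a coactivator enzyme, had a 1 uM difference of 0.11 ± 0.21 and one of -0.04 at 0.01 uM. Of the acetyltransferases Crebbp read 1.20, 0.98 and 1.16, with differences of -0.04 at 1 uM and -0.22 at 0.01 uM, and its relative Ep300 was not well above background. The Crebbp value rests on a probe tied to no RefSeq transcript, and its other 2 probes, 1 of them tied to one, were not well above background on any array.

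The class I deacetylases, the main nuclear enzymes of the family, gave no call against untreated. Hdac1 read 2.71, 2.93 and 2.90, a 1 uM difference of 0.19 ± 0.20. Hdac3, the enzyme of the nuclear receptor corepressors, read 2.94, 2.97 and 2.51, a difference of -0.43 ± 0.20. Hdac8 read -0.29, 0.02 and -0.68, with differences of -0.40 ± 0.22 at 1 uM and 0.30 ± 0.22 at 0.01 uM. A further Hdac8 probe, detected on the untreated and 1 uM arrays, gave 0.08 ± 0.32 at 1 uM. Hdac3 changed by -0.62 ± 0.29 relative to Hdac1 at 1 uM, and by -0.64 with quantile normalization. Hdac3 and Hdac1 were the lowest and highest of the detected class I genes at 1 uM. With the spike-in scaling Hdac3 and Hdac8 turned to 0.25 and 0.28.

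In classes II and IV only Hdac9, a class II enzyme that partners Mef2 factors, was called. It read -1.90 untreated and -1.07 at 1 uM and was not well above background at 0.01 uM, where its probe gave -2.19. The 1 uM difference was 0.83 ± 0.26, or 1.78-fold, and against the 0.01 uM array it was at least 1.04 on the log2 scale. With normexp background correction the difference from untreated was 0.55 and fell short of 1.5-fold. That from the 0.01 uM array was then 0.48, also short of 1.5-fold. The other 3 Hdac9 probes were not well above background on any array, so the call rests on 1 dim probe. Hdac4, its class II relative, read 0.65, 0.62 and 1.00, a 1 uM difference of 0.35 ± 0.21.

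Hdac5, a signal-dependent corepressor, read 5.35, 5.40 and 5.06, a 1 uM difference of -0.29 ± 0.20. Hdac6, the mainly cytoplasmic tubulin deacetylase, read 1.41, 1.47 and 1.59. The remaining detected members of classes II and IV lay within 1 standard error of 0 at 1 uM. Hdac7 read 3.41, 3.59 and 3.41, and its further probe gave 0.02 at 1 uM beside 0.00 for the first. Hdac10, a polyamine deacetylase, read 1.66, 1.64 and 1.77, and its probes gave 0.12 and 0.12 at 1 uM.

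Of the 5 detected sirtuins 1 was lower (Sirt2) and 1 higher (Sirt7) at 1 uM, and the other 3 were under 1.5-fold. Sirt2, a mainly cytoplasmic enzyme that acts on tubulin and on lysine 16 of histone H4, read 2.83, 2.89 and 1.99. The 1 uM array stood low by -0.84 ± 0.20, or 1.79-fold, while 0.01 uM differed by 0.06. Its further probes gave -0.86 and -0.89, the last of these sharing no bases with the others. Of the 12207 genes 7.32% were at or below Sirt2. With the spike-in scaling Sirt2 read -0.16 and was not called.

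Sirt7, a nucleolar enzyme linked to ribosomal RNA transcription, read 3.22, 3.23 and 3.89. Its 1 uM difference was 0.67 ± 0.20, or 1.59-fold, and its further probe, which overlaps the first, gave 0.73. Relative to Sirt2, Sirt7 gained 2.83-fold at 1 uM (log2 technical SE 0.29), and at 0.01 uM it differed by -0.05 ± 0.29. Sirt7 and Sirt2 were the highest and lowest of the 5 detected sirtuins at 1 uM, so this contrast is the largest the family gives. Sirt3, the main mitochondrial deacetylase, read 3.67, 3.79 and 3.19, a 1 uM difference of -0.48 ± 0.20. Sirt1, a nuclear enzyme, read -1.09, -0.90 and -1.49, a difference of -0.40 ± 0.25, with -0.24 from its further probe. Sirt5, a mitochondrial desuccinylase, read -0.14, 0.02 and 0.04. The median of the 5 detected sirtuins at 1 uM was -0.40, which turned to 0.28 with the spike-in scaling.

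**Figure D3:**
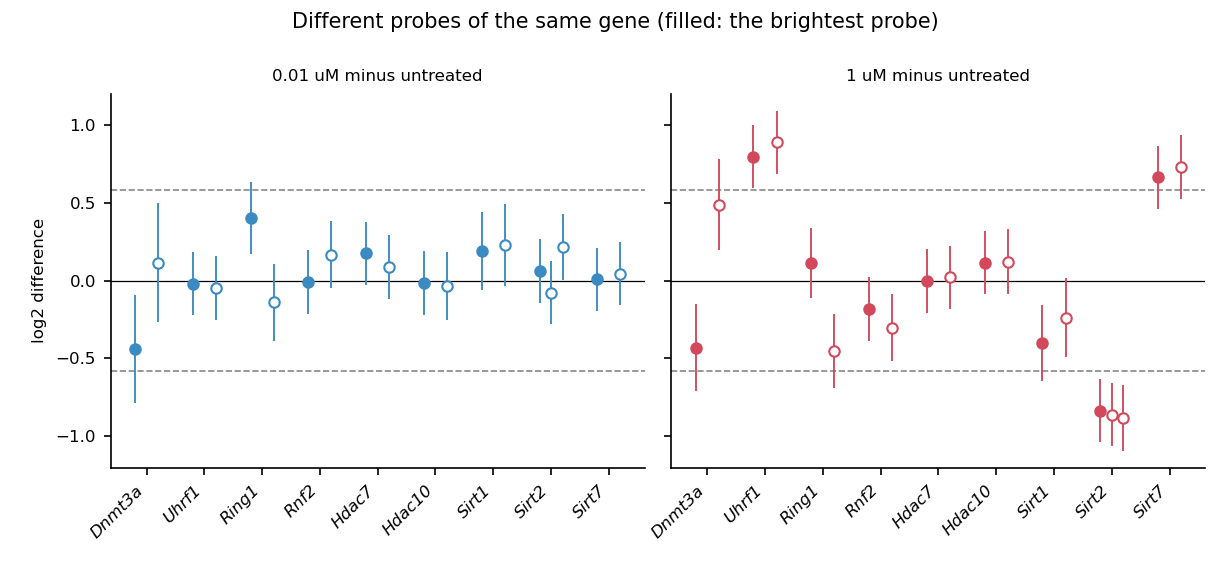
Log2 difference from the untreated array (vertical axes) at 0.01 uM (left) and 1 uM (right) for every probe detected on all 3 arrays of the 9 genes with more than 1 such probe (horizontal axes), with bars for 1 technical standard error, filled symbols for the brightest probe and dashed lines at 1.5-fold. The probes of Uhrf1, Sirt2 and Sirt7 lie together past a line at 1 uM, and those of Dnmt3a and Ring1 lie on opposite sides of 0.

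Different probes of a gene give a check within an array. For 9 genes at least 2 probes were detected on all 3 arrays, and the median spread between probes of a gene was 0.09 at each dose. Sirt2 with 3 probes spread by 0.05 at 1 uM, Uhrf1 by 0.09 and Sirt7 by 0.07. Dnmt3a spread by 0.92 and Ring1 by 0.57. Dnmt1, Ezh1 and Hdac9 had no further detected probe.

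On all 3 arrays 33 of the 40 genes were detected, and for these the array with the extreme value can be counted. The 1 uM array held the highest value for 13 and the lowest for 13, the 0.01 uM array for 12 and 13, and the untreated array for 8 and 7. Only the 1 uM array stood 1.5-fold from both others, above them for 3 genes (Dnmt1, Uhrf1 and Sirt7) and below them for 2 (Ezh1 and Sirt2). No share over all genes is given for these counts. Of all genes, 27.2% were called between 1 uM and untreated, 29.7% between 1 uM and 0.01 uM, and 2.03% between 0.01 uM and untreated. A 1 uM array that stands apart is thus not particular to these genes.

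Other genes of the same pathways were taken from 6 lists of chromatin genes, of which 121 were compared at 1 uM. Of these 8 were at least 1.5-fold higher and 10 lower, or 14.9%, with a median of -0.06, beside 27.2% and -0.03 for all genes. Among other Polycomb subunits 2 of 27 were higher and 4 lower. Cbx7, a chromodomain subunit of complex 1, read 1.07, 0.76 and -0.73, a 1 uM difference of -1.79 ± 0.22 or 3.47-fold lower. Phf19, an accessory subunit of complex 2, read -2.11, -1.51 and -0.86, or 2.38-fold higher, and Pcgf6, of a variant complex 1, was 1.95-fold higher. Phf19 was dim, and none of Cbx7, Phf19 and Pcgf6 had a further detected probe. At 0.01 uM Phf19, at 0.60, was the 1 of 27 called (3.7%), where 2.03% of all genes were. That call did not hold in each of the main, normexp and quantile settings. Asxl2 was lower by its brightest probe at -0.74 and higher by another at 0.76, so its direction is not settled.

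Among 18 histone demethylases compared, 5 were lower and 0 higher at 1 uM. That is 27.8%, near the 27.2% of all genes called in either direction, of which 13.4% were lower and 13.8% higher. With detected-probe, quantile, loess or normexp settings 3 were lower. With the spike-in scaling 0 were lower and 6 higher, where 56.7% of all genes were called. The median was -0.23, which turned to 0.45 with the spike-in scaling. The 5 were Kdm5b, Phf8, Kdm5a, Kdm3a and Kdm4b, of which Phf8 alone passed 1.5-fold in each of the main, normexp and quantile settings, at -0.75 ± 0.21. Kdm5a and Kdm5b, which remove methyl groups from lysine 4, read -0.74 and -0.77. At 0.01 uM 0 of the 18 were called, where 2.03% of all genes were.

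Of 28 other lysine and arginine methyltransferases 1 was higher and 1 lower at 1 uM, or 7.14%, where 27.2% of all genes were called. Kmt5a, the enzyme for monomethylation of lysine 20 of histone H4, read 1.52, 1.57 and 2.56, or 2.06-fold higher, and its further probe gave 0.85. Prmt6 read -0.85 untreated and -2.22 at 1 uM, or 2.59-fold lower, and was not well above background at 0.01 uM, where it was at least 2.40-fold lower. Of 23 deacetylase complex partners and Sirt4, 3 were higher and 0 lower. That is 13%, close to the 13.8% of all genes that were higher. The 3 genes were the corepressor subunits Rcor2 at 0.95, Sin3a at 0.65 and Gatad2a at 0.62. Other acetyltransferases gave 1 higher of 15 (6.67%), and other DNA methylation genes 1 higher of 10 (10%), with 0 lower in either list.

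**Figure D4:**
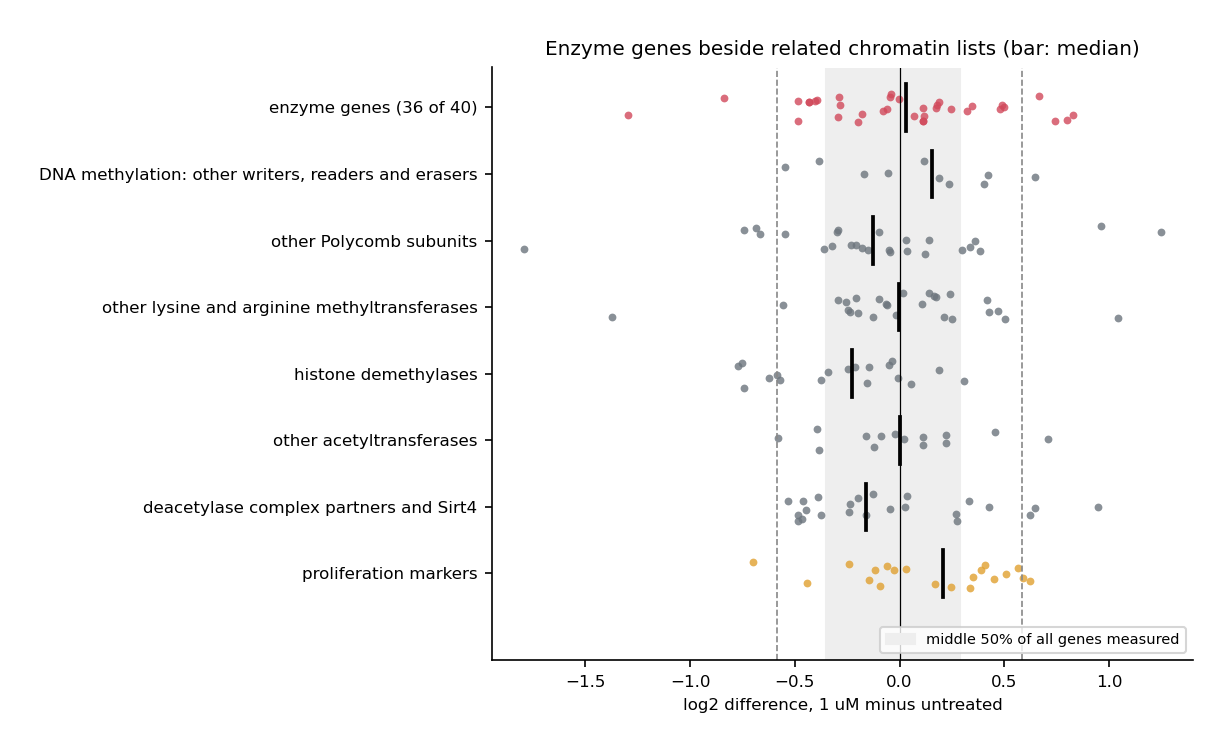
Log2 difference between 1 uM and untreated (horizontal axis) of each measured gene (points) in the 36 compared enzyme genes, 6 further chromatin lists and the proliferation markers (vertical axis), with a bar at each list's median, dashed lines at 1.5-fold and a grey band over the middle 50% of all genes measured. The medians of all lists lie within the band, the lowest being the histone demethylases at -0.23 and the highest the proliferation markers at 0.21, relative to the 75th percentile.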

How the data were processed

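Each of 3 RNA samples was hybridised to 1 single-channel Cy3 array, all on 1 slide. Per the file headers, the authors used Agilent Feature Extraction 10.5.1.1 to obtain spot intensity, with probe positions in build mm9. The authors' deposited value table holds log2 values that equal log2 processed signal minus 1 constant per array (9.45, 9.01 and 9.56 for untreated, 0.01 uM and 1 uM, to within 0.01 on 99.8% of untreated-array probes), with column medians of -4.23, -3.96 and -4.03. That scale is the one used here.

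Control and outlier-flagged spots were left out, spots of a probe were averaged on log2, and each array's 75th percentile was subtracted. A gene stands for its brightest probe over the 3 arrays and was compared if either array of the pair detected that probe well above background. If only one did, the fold is at least the brighter value over the dim probe's own signal or, if larger, the dimmest detected signal on its array. A gene counted as called at 1.5-fold, and at 2-fold as a stricter rule. Standard errors are from the scanner's error model. No test was possible, and precision is limited by the number of arrays. Probes were named through RefSeq (GRCm38.p6, names and promoter windows only): 25094 by accession, 6332 by symbol and 1640 by synonym, while 8101 kept the name in the file.

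All 40 members are named, and of related lists up to 3 genes per direction past 1.5-fold in the main, normexp and quantile settings; single other genes were named after their values were seen. The members and lists were chosen with earlier results of these data known. Alternatives were 5 other scalings, normexp (limma 3.58.1, R 4.3.3, offset 50), 2 filters on dim probes, probe means, retained outlier spots, the authors' table and the 2-fold threshold. Loess used a span of 0.4. Python 3.11.15, numpy 2.4.6, pandas 2.3.3, statsmodels 0.14.6 and matplotlib 3.10.9 were used, and the counting was tested on simulated data.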

Additional observations from a re-analysis of the deposited data

How the results depend on the processing

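In all 11 alternative ways of making the values, Dnmt1, Uhrf1, Sirt7 and Ezh1 passed 1.5-fold in the same direction at 1 uM against untreated, and Hdac9 (not with normexp, 0.55) and Sirt2 (not with the spike-in scaling, -0.16) in 10 of 11. Not all of the 11 could move a value. Dnmt1 and Ezh1 had 1 probe each, detected on all 3 arrays, so probe means and the 2 filters on dim probes return their main values. The authors' table is on the scale used here. The 2-fold threshold left 0 higher and 1 lower at 1 uM against untreated, and 1 higher and 1 lower for 1 uM against 0.01 uM. With the spike-in scaling the counts at 1 uM against untreated were 23 higher and 1 lower with a median of 0.71, where 56.7% of all genes were called. For 0.01 uM against untreated 2 were higher with a median of 0.31, where 5.82% of all genes were called. For 1 uM against 0.01 uM 8 were higher and 1 lower with a median of 0.39, where 34.8% were called. With no filter on dim probes 1 gene was higher (Ep300) and 1 lower (Dnmt3b) at 0.01 uM against untreated, where 49.5% of all genes were called. For 1 uM against 0.01 uM the 6 lower genes became 2 when scaled on the 75th percentile of detected probes, and 3 each when scaled on their median, with loess, normexp and the mean of probes. The other 86 counts and medians stayed within 1.5 times or 1 technical standard error. No gene called at 1 uM against untreated changed sign in any of the 11. For 1 uM against 0.01 uM Mbd2, called lower, read 0.03 with the mean of probes, which takes in a probe not well above background. Leaving out a replicate was not possible with 1 array a group. No paired analysis was possible because each group has 1 array. The 4 genes not above background and the dim Dnmt3b, Suv39h2 and Hdac9 are limited by signal over background.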
